A study of Mus musculus with 4 samples.

Results

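Genes of the cell division cycle and of mitosis were followed in lung RNA of allergen-challenged mice. The set held 92 of the 9153 genes that had a platform symbol and a value on all 4 arrays. A gene belonged to it by its symbol: Mcm2 to Mcm7, a Cdc, Cdk, Cks or Plk name with a number, a numbered cyclin of the A to E types, or a name beginning with Cenp, Aurk, Bub1, Kif or Cdkn. This rule gave 97 symbols, and 5 of them (Ccnd3, Cdk2, Cdk3, Cdkn1c and Cenpt) had a value on 3 arrays only and were left out. The rule goes by name, so 52 of the 92 members have roles in division. Another 35 carry such a name and were assigned other work in the cell, such as transport kinesins, and 5 are inhibitors or share the inhibitors' Cdkn name. Some placements can be argued, such as Kif2b among the other kinesins and Cenpj among the centromere genes.

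The animals were BALB/cJ mice, an inbred strain. Challenged lungs came from mice that had been sensitized to ovalbumin, the chicken egg protein, and challenged with it, in air with UCP (an exposure the labels do not spell out) or in particle-free air. Controls were non-sensitized mice of the same air, pooled from 6 animals, so that sensitization and challenge cannot be told apart. The control side of each air is 1 sample, and a difference between airs includes the difference between their pools. Each air had 2 arrays of 2 colours, the first with the challenged lung in Cy5 and the second with it in Cy3. The labels give no age, and do not say that the arrays of an air hold separate animals, so p-values measure only how arrays differ, which can be technical.

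A cell that divides first copies its DNA from origins that were licensed by loading the Mcm helicase, and then separates the copies in mitosis. Cyclins switch on cyclin-dependent kinases for each step, Cks subunits dock those kinases to their substrates, Cdc25 phosphatases activate them and Cdkn proteins hold them back. At mitosis, kinesins and the kinases Aurora A and Plk1 build the spindle, kinetochores assembled on the Cenpa-marked centromere capture it, and the Bub checkpoint restrains Cdc20 and the anaphase-promoting complex until all chromosomes are attached. Most cells of a resting adult lung are out of the cycle, whereas allergic inflammation is known for dividing lymphocytes, myeloid cells and epithelium. In RNA of the whole lung, a different number of cycling cells and a different amount of RNA per cell cannot be told apart.

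All values are deposited log2 ratios of challenged lung over the control pool, so 0 means equal brightness and 1 a doubling. Between 19349 and 19832 probes per array had a value, and array medians lay between -0.07 and 0.02. The arrays run in the same direction relative to each other, as the values themselves show. That a positive ratio means more RNA in the challenged lung is likely, from the dyes in the labels and from genes such as Chil3, a chitinase-like protein of macrophages, at a mean log2 ratio of 5.58, but is not stated. No member probe lay on the ceiling that extreme ratios reach.

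No member passed the test. In the averaged effect of challenge over both airs, 0 of 92 members had an adjusted p under 0.05 (limma, Benjamini-Hochberg over 9153 genes), where 0.0656% of all genes were called higher and 0.0328% lower. The smallest adjusted p of a member was 0.107, for Cks1b. At an unadjusted p under 0.05, 14 members lay higher and 4 lower, beside 8.06% and 7.56% of all genes. Members with roles in division made up 12 of the 14 higher ones and none of the 4 lower ones. Without UCP air array 2 those counts were 5 higher and 1 lower, and the count of division members was 3. When another array was left out, 8 to 11 division members lay higher, and 4 lay lower without particle-free air array 1, 2 without particle-free air array 2 and 1 without UCP air array 1.

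The sign of the ratio was also counted across arrays. All 4 ratios were above 0 for 20 of the 92 members, beside 14.2% of all genes, and below 0 for 13, beside 14.1%. Of the 52 members with roles in division, 15 were above 0 on all arrays and 2 below. Without particle-free air array 1 those counts were 17 and 9. The 35 with other roles counted 4 above and 9 below. The median averaged log2 ratio was 0.02 over the 92 members, 0.07 over the division members and -0.11 over the other roles, beside -0.01 over all genes. Leaving out particle-free air array 2 gave medians of 0.13 over all members and 0.23 over the division members. The members' median was -0.10 on that array, and 0.02 and 0.07 on the UCP air arrays and 0.13 on the other particle-free air array.

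**Figure D1:**
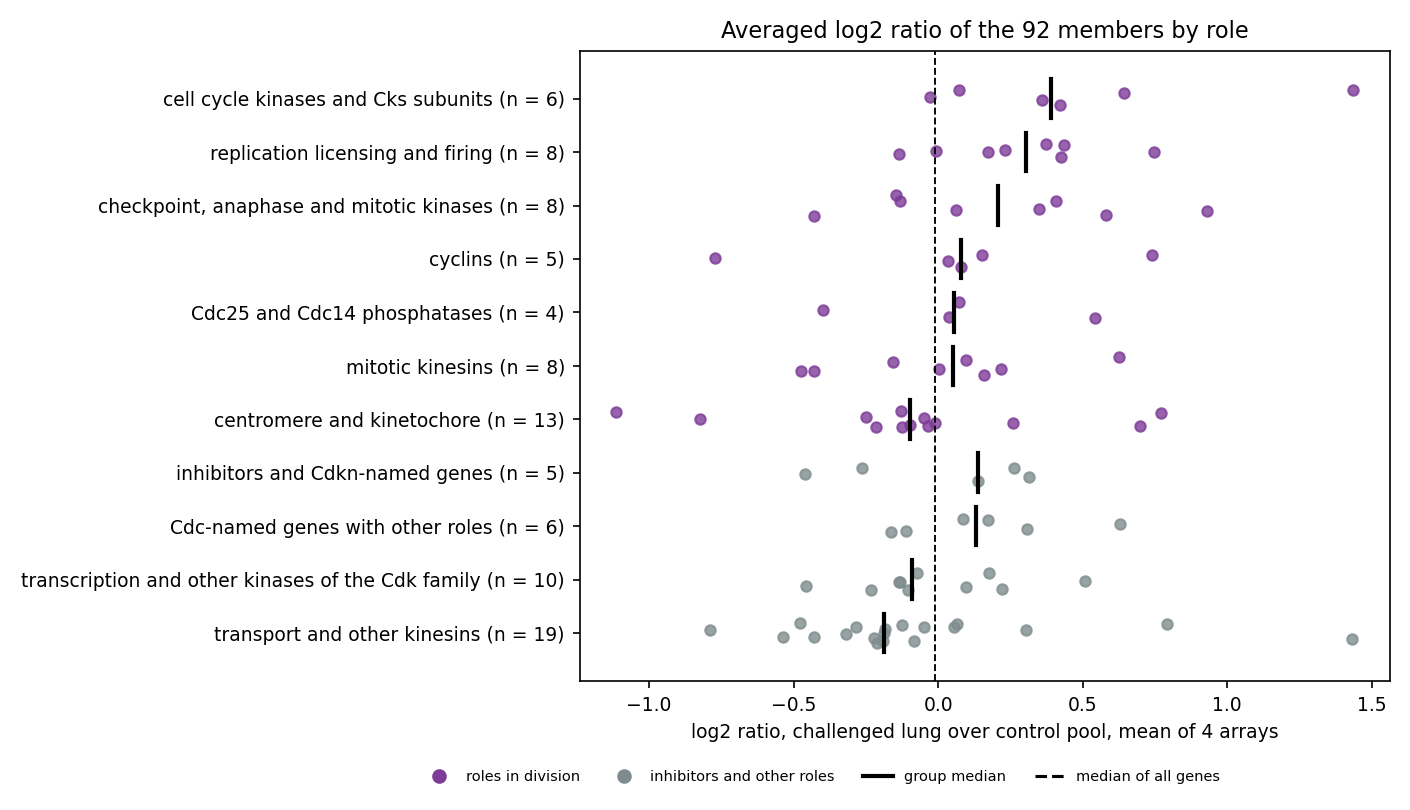
Averaged log2 ratio of challenged lung over control pool (mean of 4 arrays, horizontal axis) for the 92 members grouped by role (rows). Each point is a gene, the thick bar is the group's median and the dashed line is the median of all genes at -0.01. Group medians run from 0.39 for cell cycle kinases and Cks subunits to -0.19 for transport and other kinesins.

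The 3 genes that mark cycling cells all had a positive mean, and they differed in how steady they were. Cks1b, a subunit that binds cyclin-dependent kinases and also helps the ligase that destroys Cdkn1b, had log2 ratios of 1.69 and 0.88 in UCP air and of 1.57 and 1.61 in particle-free air. Its mean was 1.44 ± 0.37 (SD, n = 4 arrays), a fold of 2.70, and every array was above the 1.5-fold line at 0.585. Cdc20, which activates the anaphase-promoting complex, had 0.55 and 0.84 in UCP air and 1.03 and 1.30 in particle-free air. Its mean of 0.93 ± 0.32 (SD, n = 4) is a fold of 1.91, and its adjusted p was 0.127 (limma, averaged effect).

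Ccnb2, a cyclin of mitosis, was the unsteady marker. It had 0.52 and 0.42 in UCP air and 2.82 and -0.81 in particle-free air, so its particle-free arrays stood on opposite sides of 0. The mean was 0.74 ± 1.52 (SD, n = 4; limma adjusted p = 0.604), and it turned to -0.17 when particle-free air array 1 was left out. One of its 2 probes averaged 1.76 and the other -0.28. Of the 3 marker genes, Cks1b and Cdc20 were therefore above 0 on every array, and 0 passed the adjusted threshold.

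Promoter sequences are shown for the 3 marker genes and for a kinesin, a centromere gene and a helicase gene among the members, because many genes of the cycle share short elements near their start. The CHR element TTTGAA is bound by the DREAM and B-Myb complexes and is known from genes of mitosis. The CCAAT box is bound by NF-Y, and TTTCCCGC and TTTGGCGC are forms of the E2F site, known from genes of DNA replication. The sequences come from RefSeq (build GRCm38.p6) and run from 150 bases before to 25 bases after the annotated start, 5′ to 3′ on the strand of the gene. Capitals mark matches to these motifs or to their reverse complements, so on either strand. The windows are chr3:89418267-89418441 (minus strand) for Cks1b, chr4:118437319-118437493 (minus) for Cdc20, chr9:70421530-70421704 (minus) for Ccnb2, chr9:61946775-61946949 (minus) for Kif23, chr5:30666736-30666910 (plus) for Cenpa and chr1:128359681-128359855 (minus) for Mcm6.
Cks1b: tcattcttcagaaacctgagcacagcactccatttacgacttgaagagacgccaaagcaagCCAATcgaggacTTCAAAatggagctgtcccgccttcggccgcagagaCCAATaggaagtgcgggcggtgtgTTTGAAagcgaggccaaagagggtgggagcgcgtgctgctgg
Cdc20: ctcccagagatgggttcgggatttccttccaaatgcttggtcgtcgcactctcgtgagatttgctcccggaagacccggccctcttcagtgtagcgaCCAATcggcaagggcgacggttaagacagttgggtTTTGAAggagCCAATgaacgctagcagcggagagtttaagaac
Ccnb2: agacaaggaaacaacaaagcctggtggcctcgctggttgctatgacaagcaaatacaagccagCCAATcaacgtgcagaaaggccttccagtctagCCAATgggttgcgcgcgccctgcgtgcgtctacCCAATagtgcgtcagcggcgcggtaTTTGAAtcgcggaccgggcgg
Kif23: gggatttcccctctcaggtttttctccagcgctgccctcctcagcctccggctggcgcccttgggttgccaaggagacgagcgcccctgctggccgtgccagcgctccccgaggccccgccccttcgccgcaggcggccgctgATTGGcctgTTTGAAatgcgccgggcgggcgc
Cenpa: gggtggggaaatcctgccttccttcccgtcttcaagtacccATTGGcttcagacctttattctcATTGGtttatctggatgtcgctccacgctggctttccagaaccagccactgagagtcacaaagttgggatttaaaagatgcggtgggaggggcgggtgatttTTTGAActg
Mcm6: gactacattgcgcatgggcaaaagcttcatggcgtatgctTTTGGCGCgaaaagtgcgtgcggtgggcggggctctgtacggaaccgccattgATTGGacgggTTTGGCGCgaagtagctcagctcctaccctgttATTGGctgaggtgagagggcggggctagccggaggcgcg
The Cks1b, Cdc20, Ccnb2, Kif23 and Cenpa windows each hold TTTGAA on the gene's strand within 20 bases of the start, and the Mcm6 window holds TTTGGCGC at 2 places.

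The motif shares differed between the roles. A RefSeq window from 250 bases before to 50 after the start was found for 80 members. CHR matches stood in 6 of 7 mitotic kinesin windows (85.7%) and 4 of 8 windows of the checkpoint and mitotic kinase group (50.0%). Centromere and kinetochore genes had them in only 2 of 13 windows (15.4%). The share was 14.3% over the 7411 measured genes with a window and 17.9% over all 32851 windows of the same length. E2F matches stood in 5 of 7 licensing and firing windows (71.4%: Mcm3, Mcm5, Mcm6, Mcm7 and Cdc6), beside 3.09% of measured genes and 1.56% of all windows. The CCAAT box was common everywhere, at 61.7% of the 47 division members with a window, 42.7% of measured genes and 37.4% of all windows. These shares describe letters in the windows only and no binding was measured.

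**Figure D2:**
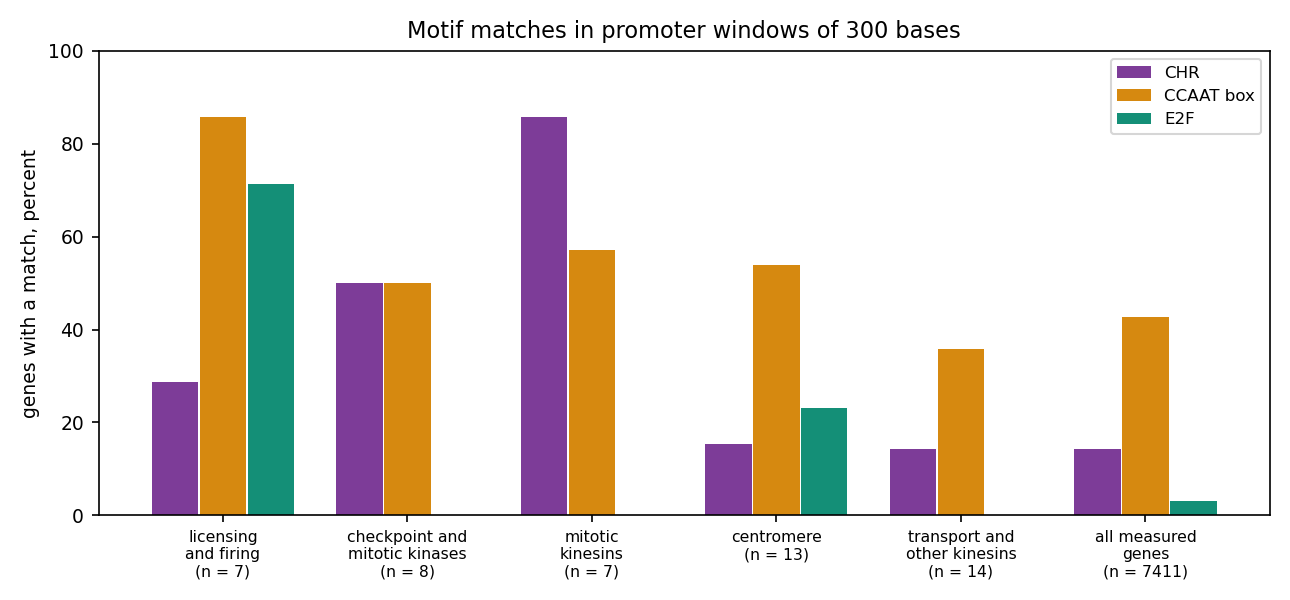
Percent of genes (vertical axis) whose promoter window of 300 bases holds a CHR element, a CCAAT box or an E2F site in the forms spelled out in the text, on either strand, for groups of members and for all measured genes with a window. CHR matches reach 85.7% of mitotic kinesins and E2F matches 71.4% of licensing and firing genes, beside 14.3% and 3.09% of measured genes.

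Set beside the array values, the division members with a CHR match had a median averaged log2 ratio of 0.41 (17 genes), against -0.03 for the 30 without one. For the CCAAT box the medians were 0.35 with a match (29 genes) and -0.13 without (18 genes). For the E2F site the order was the other way round, -0.01 with a match (9 genes) and 0.09 without (38 genes). Of the 14 division members with a window that were above 0 on all arrays, 9 held a CHR match and 13 a CCAAT box, and 1 held an E2F match. Of the other 33 the counts were 8, 16 and 8. Over all measured genes, the medians with and without a CHR match were both -0.01. These are descriptions of a set chosen by name, with no test.

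Licensing and firing genes lay mostly above 0. Their median log2 ratio was 0.19 in UCP air and 0.43 in particle-free air over 8 genes. Of the 8, 6 had a positive average, beside 48.3% of all genes. Mcm6, a subunit of the replicative helicase whose promoter holds a pair of E2F matches, had 0.09 and 0.67 in UCP air and 0.69 and 1.55 in particle-free air (mean 0.75 ± 0.60, SD, n = 4; limma adjusted p = 0.249). Cdc45, which joins the helicase when an origin fires, had 0.40 and 0.40 in UCP air and 0.76 and 0.17 in particle-free air. Mcm4 and Mcm2, further helicase subunits, were also positive on all 4 arrays, at means of 0.37 ± 0.23 and 0.23 ± 0.21 (SD, n = 4 each).

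The helicase subunits did not run together on every array, although they act as 1 ring. Mcm5 had 0.04 and 0.09 in UCP air and 1.13 and -1.29 in particle-free air. Mcm7 had -0.04 and 0.33 in UCP air and 0.30 and -1.13 in particle-free air. Both were thus strongly negative on particle-free air array 2, the array on which Mcm6 had its highest ratio. Mcm3 was near 0 in UCP air (0.17 and -0.08) and at 0.72 and 0.90 in particle-free air. Cdc6, which loads the helicase onto origins, was 0.47 and 0.00 in UCP air and -0.47 and 0.69 in particle-free air, on both sides of 0 in particle-free air, with a mean of 0.17 ± 0.51 (SD, n = 4).

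**Figure D3:**
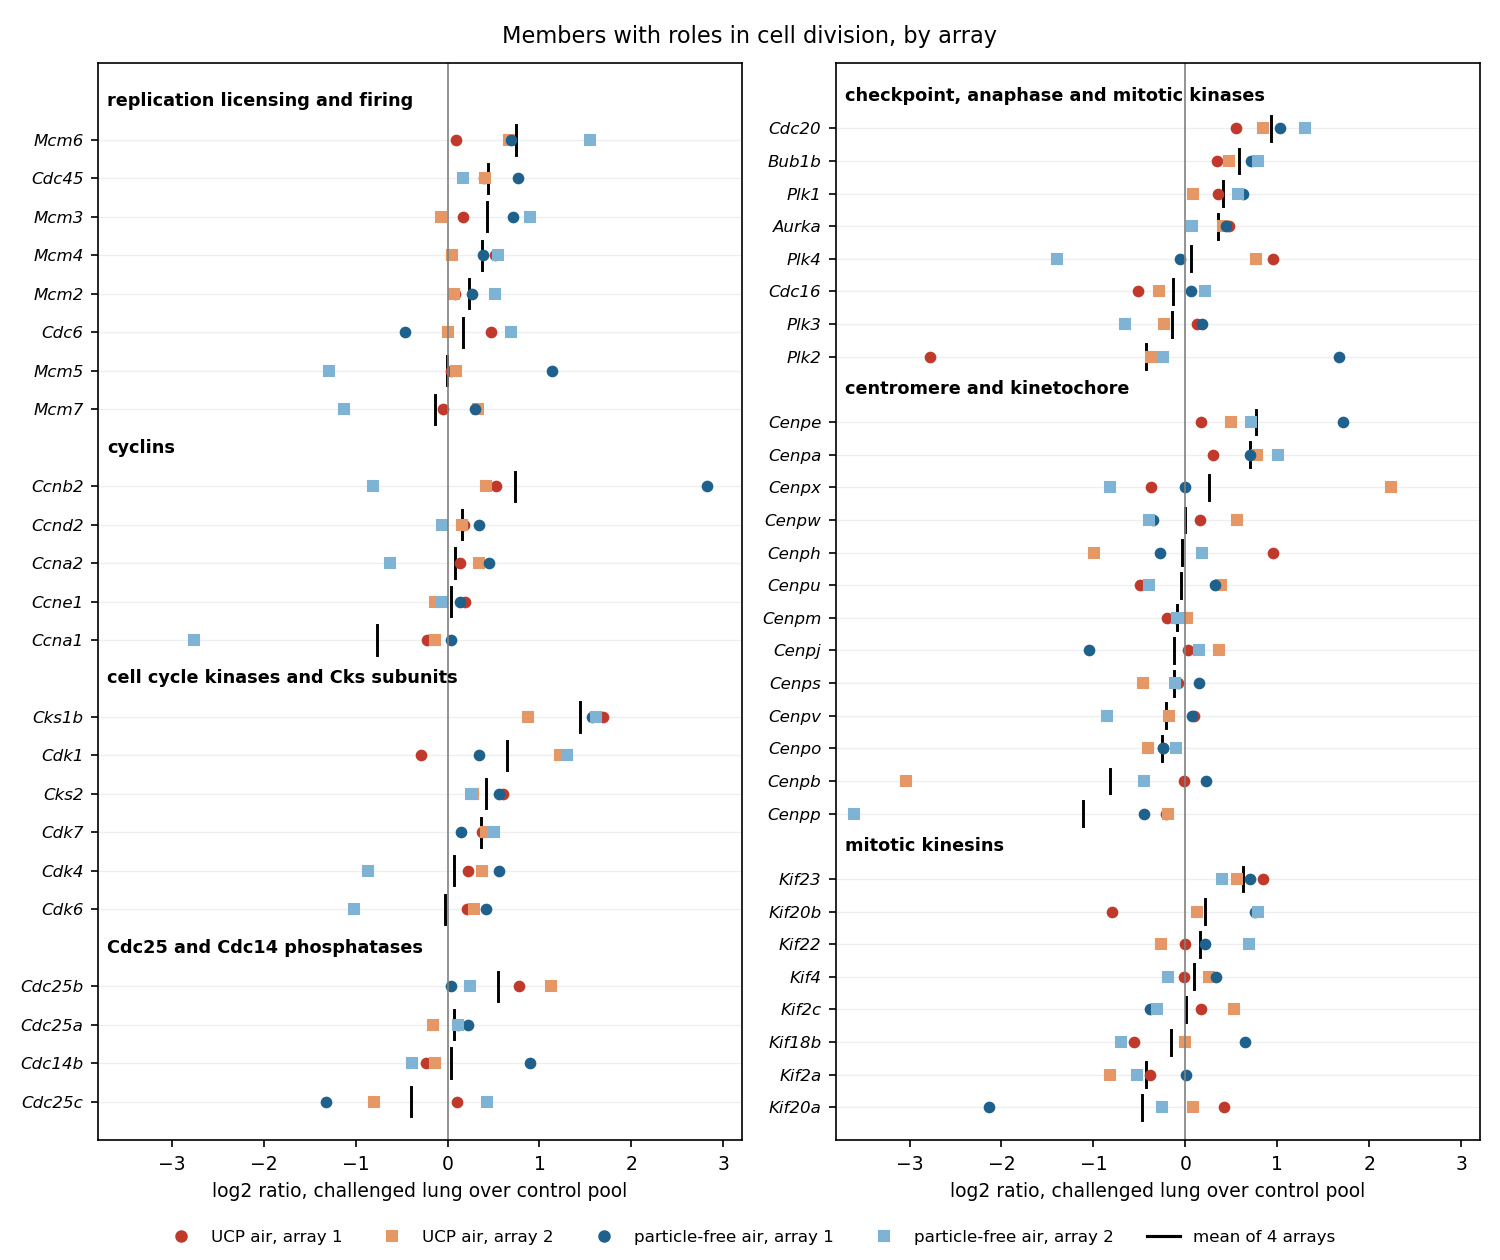
Log2 ratio of challenged lung over control pool (horizontal axis) for the 52 members with roles in division, grouped by role. Red and orange symbols are the UCP air arrays, dark and light blue symbols the particle-free air arrays, and the black tick is the mean of 4 arrays. Cks1b, Cdc20, Kif23, Bub1b and Cenpa lie above 0 on all arrays, while Ccnb2, Plk2, Cenpp and Cenpb each have an array far from the others.

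Among the kinases that drive the cycle and their Cks subunits, 5 of 6 had a positive average, beside 48.3% of all genes. The group median was 0.39. Cks2, the close relative of Cks1b, had 0.60 and 0.28 in UCP air and 0.56 and 0.25 in particle-free air. Its mean of 0.42 ± 0.18 (SD, n = 4; limma adjusted p = 0.301) was far below that of Cks1b, though every array was positive. Cdk7, which activates other Cdks and also phosphorylates RNA polymerase, was steady at 0.37 and 0.42 in UCP air and 0.15 and 0.50 in particle-free air. Cdk1, the kinase of mitosis, had -0.28 and 1.23 in UCP air and 0.34 and 1.30 in particle-free air. Its high values were both on arrays with the challenged lung in Cy3 (mean 1.26), against 0.03 on the Cy5 arrays, so the dye orientations differed by more than the airs did. Cdk4 and Cdk6, the partners of D cyclins, were positive on 3 arrays (0.21 to 0.56) and at -0.86 and -1.02 on particle-free air array 2.

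The cyclins gave no steady direction: 0 of 5 were above 0 on all arrays, beside 14.2% of all genes. The group median was 0.08. Ccna2, the cyclin of S phase and early mitosis, had 0.13 and 0.35 in UCP air and 0.46 and -0.63 in particle-free air. Ccnd2, a D cyclin that responds to growth signals, had 0.18 and 0.15 in UCP air and 0.34 and -0.06 in particle-free air. Ccne1, which acts at the entry into S phase, stayed between -0.14 and 0.19. Ccna1, mainly a cyclin of the male germ line, had -2.76 on particle-free air array 2 and between -0.23 and 0.04 on the others. Each of these 5 genes had its lowest or second lowest ratio on particle-free air array 2.

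Of the phosphatases, Cdc25b, which activates Cdk1 at the entry into mitosis, was positive on all arrays, with its larger ratios in UCP air. It had 0.77 and 1.13 in UCP air and 0.04 and 0.24 in particle-free air. Cdc25a stayed between -0.16 and 0.22, and Cdc25c ranged from -1.32 to 0.43 with arrays of each air on both sides of 0.

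The checkpoint and mitotic kinase group had a median of 0.21, with 4 of 8 genes above 0 on all arrays, beside 14.2% of all genes. Bub1b, the checkpoint protein BubR1 that restrains Cdc20, had 0.35 and 0.47 in UCP air and 0.71 and 0.79 in particle-free air (mean 0.58 ± 0.20, SD, n = 4; limma adjusted p = 0.188). Plk1, which acts on centrosomes, kinetochores and cytokinesis, had 0.35 and 0.08 in UCP air and 0.63 and 0.57 in particle-free air. Aurka, the Aurora kinase of spindle poles, had 0.47 and 0.41 in UCP air and 0.45 and 0.07 in particle-free air. With Cdc20 these are the 4 genes of the group positive on every array. For Aurka the last of these values, 0.07, averages probes at 0.28 and -0.13.

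The other Plk genes and Cdc16 did not share that pattern. Plk4, the kinase that starts centriole duplication, had 0.95 and 0.77 in UCP air and -0.06 and -1.40 in particle-free air. Plk2, a stress-responsive relative, had -2.77 and -0.37 in UCP air and 1.67 and -0.24 in particle-free air, a spread of SD 1.82 over 4 arrays. Plk3 lay between -0.66 and 0.18. Cdc16, a subunit of the anaphase-promoting complex, was at -0.52 and -0.29 in UCP air and 0.06 and 0.21 in particle-free air.

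Centromere and kinetochore genes were split, with 3 of 13 above 0 on average, beside 48.3% of all genes. The group median was -0.10. Cenpa, the histone variant that marks the centromere, had 0.30 and 0.78 in UCP air and 0.70 and 1.01 in particle-free air (mean 0.70 ± 0.29, SD, n = 4; limma adjusted p = 0.196). Cenpe, a kinesin motor of the kinetochore, had 0.16 and 0.50 in UCP air and 1.71 and 0.71 in particle-free air (mean 0.77 ± 0.67, SD, n = 4; limma adjusted p = 0.244). These were the only 2 of the 13 above 0 on all arrays. Cenpo, part of the inner kinetochore, was below 0 on all arrays, between -0.41 and -0.10. Cenpp and Cenpb had the lowest means, -1.11 and -0.82, and each mean was set by 1 array, at -3.61 for Cenpp on particle-free air array 2 and -3.04 for Cenpb on UCP air array 2. Cenpx had 2.23 on UCP air array 2, between -0.82 and -0.01 on the others, and 2 probes that disagreed by more than 1.

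Mitotic kinesins had a median of 0.05 over 8 genes, with averages from -0.47 to 0.63. Kif23, the motor of the midzone needed for cytokinesis, had the highest average, at 0.84 and 0.56 in UCP air and 0.70 and 0.40 in particle-free air. Its mean was 0.63 ± 0.19 (SD, n = 4; limma adjusted p = 0.198). Kif20b, another late mitotic motor, had -0.80 and 0.12 in UCP air and 0.76 and 0.79 in particle-free air. Kif2a, which depolymerises microtubules, was at -0.38 and -0.82 in UCP air and 0.01 and -0.53 in particle-free air. Kif4 and Kif22, motors that bind chromosomes, had means of 0.10 and 0.16, and Kif20a had probes at -1.15 and 0.20. Although 6 of 7 windows of this group hold a CHR match, Kif23 was its only member with 4 positive arrays.

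Inhibitors of the cycle gave no common direction. Cdkn1b, which restrains Cdk2 complexes and is removed with the help of Cks1b, had -0.81 and -0.37 in UCP air and -0.29 and -0.38 in particle-free air. Its mean was -0.46 ± 0.24 (SD, n = 4, limma adjusted p = 0.277). As the average of 2 probes it lay on the opposite side of 0 from Cks1b on every array. Neither probe did so alone: in particle-free air 1 had 0.23 and -0.91 and the other -0.80 and 0.15. The arrays measure RNA and not the protein that is removed, and a link between these ratios was not tested. Cdkn1a, the inhibitor induced by p53, was below 0 on all arrays with values from -0.64 to -0.07. Cdkn2c and Cdkn2d, inhibitors of Cdk4 and Cdk6, had means of 0.26 ± 0.46 and 0.14 ± 0.15 (SD, n = 4 each), and each was below 0 on 1 array. Cdkn2aipnl, which shares the name but is not an inhibitor, had 0.22 and 0.55 in UCP air and 0.07 and 0.41 in particle-free air.

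Of the 35 members with other roles, 22 had a negative average, beside 4734 of the 9153 genes. Of 19 transport and other kinesins, 14 had a negative average, with a group median of -0.19. On all arrays 6 were below 0 and 1 above, beside 14.1% and 14.2% of all genes. Kifbp, a protein that binds kinesins and keeps them off microtubules, had -0.68 and -0.92 in UCP air and -0.68 and -0.88 in particle-free air (mean -0.79 ± 0.13, SD, n = 4; limma adjusted p = 0.139). It was the only member at least 1.5-fold lower on all 4 arrays, beside 1.02% of all genes. Kif12, known from kidney tubule and bile duct epithelium, had -0.37 and -0.52 in UCP air and -0.20 and -0.82 in particle-free air. Kif1c, Kif21a, Kif1b and Kif3b, motors of transport along microtubules, were below 0 on all arrays with means from -0.43 to -0.19. For Kif1c and Kif3b this holds for the average of 2 probes only. In particle-free air 1 Kif1c probe was at 0.52 and 0.36. For Kif3b, 1 probe was at 0.21 on UCP air array 1 and 0.11 on particle-free air array 1, where the gene averaged -0.002.

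Kifc2 ran against its group. This minus-end motor, known from neurons, had 1.05 and 2.52 in UCP air and 0.88 and 1.27 in particle-free air (mean 1.43 ± 0.75, SD, n = 4; limma adjusted p = 0.162). Kifc2 and Cks1b were the 2 members at least 1.5-fold higher on all 4 arrays, beside 1.16% of all genes. Without UCP air array 1 that count was 5. Kif9, a motor of motile cilia, had 2.80 on particle-free air array 1 and between -0.69 and 0.72 on the others.

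Among the Cdk family kinases of transcription and other tasks, 4 of 10 had a positive average, beside 48.3% of all genes. The group median was -0.09. Cdk14, a kinase of Wnt signalling at the membrane, had -0.06 and -0.14 in UCP air and -0.99 and -0.65 in particle-free air (mean -0.46 ± 0.44, SD, n = 4; limma adjusted p = 0.262). Cdk9, which releases paused RNA polymerase, ranged from -0.63 to 0.81. Of the Cdc names with other roles, Cdc37, a chaperone partner of Hsp90 for kinases, was positive on all arrays, with its larger ratios in UCP air. It had 0.94 and 0.89 in UCP air and 0.42 and 0.27 in particle-free air (limma adjusted p = 0.168, averaged effect). Cdc42, a small GTPase of cell shape, stayed between -0.12 and 0.51.

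In UCP air alone, 0 members had an adjusted p under 0.05, beside 0.0109% of all genes called in each direction, and 6 members lay higher and 2 lower by the unadjusted threshold of 0.05, beside 4.45% and 4.93%. In particle-free air alone, 0 members passed, beside 0.0109% of genes called higher and 0.0% lower, and 10 higher and 3 lower members had an unadjusted p under 0.05, beside 5.58% and 5.7%. All 10 of those higher members in particle-free air have roles in division, as do 4 of the 6 in UCP air. Without UCP air array 2 the counts in UCP air were 1 higher and 1 lower, and without UCP air array 1 they were 4 and 1. In particle-free air the counts moved too, and without particle-free air array 1 the lower members outnumbered the higher ones. The shares of all genes with an array left out are not given here. These moves can therefore not be read as particular to the members. At least 1.5-fold higher on both arrays were 5 members in UCP air, beside 2.93% of all genes, and 9 in particle-free air, beside 3.73%. At least 1.5-fold lower on both were 1 member in UCP air, beside 3.82%, and 2 in particle-free air, beside 3.58%. On 1 array alone more members passed the 1.5-fold line, in each direction and in both airs. A line passed on 1 array is a looser bar than on 2, and the shares of all genes on 1 array are not given here. By sign alone, 38 members were above 0 on both UCP air arrays, beside 30.4% of all genes, and 26 below, beside 30.1%. On both particle-free air arrays 29 members were above 0, beside 26.2%, and 26 below, beside 29.5%. The difference of these counts between the airs was not tested.

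For UCP minus particle-free air, 0 members and 0.0% of all genes passed the adjusted threshold (limma). At an unadjusted p under 0.05, 2 members were higher in UCP air (Plk4 and Cdc25b), beside 1.79% of genes, and 2 were lower (Mcm3 and Kif20b), beside 2.15%. All 4 have roles in division. These counts depended on the arrays: they were 8 higher and 0 lower without particle-free air array 1, 5 and 5 without particle-free air array 2, 0 and 2 without UCP air array 2, and 3 and 1 without UCP air array 1. Plk4 differed by 1.59 ± 0.52 (SE) and Cdc25b by 0.81 ± 0.29 (SE), and Mcm3 by -0.76 ± 0.27 (SE) and Kif20b by -1.11 ± 0.40 (SE), each with a limma adjusted p of 0.979. Of all members, 5 were above 0 on both UCP air arrays and below 0 on both particle-free air arrays, beside 4.34% of all genes, and 2 ran the other way round, beside 3.37%. Both UCP air arrays lay above both particle-free air arrays for 14 members, beside 16.9% of all genes, and below them for 14, beside 15.4%. With all 4 arrays, the counts of members are near the background shares. A p that misses the threshold does not show that the airs act alike.

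**Figure D4:**
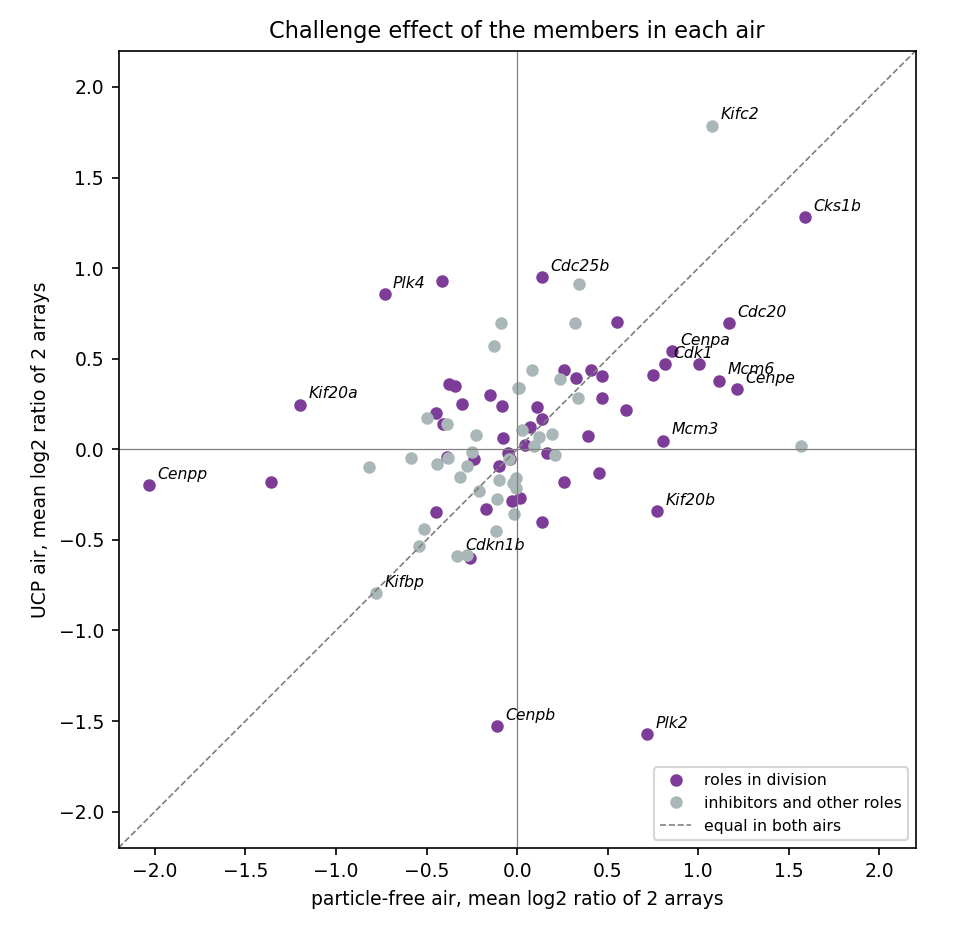
Mean log2 ratio of challenged lung over control pool in UCP air (vertical axis, 2 arrays) against particle-free air (horizontal axis, 2 arrays) for the 92 members. The dashed line marks equal values. Plk4 and Cdc25b lie above it, Mcm3 and Kif20b below it, and Cks1b, Cdc20 and Kifc2 are positive in both airs.

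Genes of the same processes outside the naming rule were set beside the members. DNA replication had 29 of 45 listed genes measured, with 25 above 0 on average, 13 above 0 on all arrays and a median log2 ratio of 0.25. Over all genes, 48.3% were above 0 on average and 14.2% on all arrays. At an unadjusted p under 0.05, 8 were higher and 1 was lower, beside 8.06% and 7.56% of all genes, and 0 passed the adjusted threshold. Top2a, the topoisomerase that untangles copied DNA, had 0.75 and 0.82 in UCP air and 0.66 and 0.58 in particle-free air (limma adjusted p = 0.146). Uhrf1, which keeps DNA methylation through replication, had 0.37 and 0.39 in UCP air and 1.60 and 1.25 in particle-free air. Orc6, of the origin recognition complex, averaged 1.20 ± 0.75, Lig1, which joins DNA fragments, 0.76 ± 0.23 and Rrm1, which makes deoxynucleotides, 0.64 ± 0.16 (SD, n = 4 each), all positive on every array.

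Mitosis and segregation had 32 of 47 listed genes measured, with 21 above 0 on average, 11 above 0 on all arrays and a median of 0.21, beside 48.3% and 14.2% of all genes above 0 on average and on all arrays. By the unadjusted threshold of 0.05, 10 lay higher and 1 lower, beside the same 8.06% and 7.56% of all genes, and 0 passed after adjustment. Mki67, the usual marker of proliferating cells, had 0.82 and 1.16 in UCP air and 0.46 and 0.32 in particle-free air (limma adjusted p = 0.168). Birc5, a subunit of the Aurora B complex, had 0.47 and 0.69 in UCP air and 0.71 and 0.89 in particle-free air. Ran, the GTPase of nuclear transport and spindle assembly, averaged 0.84 ± 0.20, Nusap1, a spindle protein, 0.81 ± 0.43 and Prc1, a bundler of midzone microtubules, 0.97 ± 0.61 (SD, n = 4 each), positive on every array.

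Regulators of the cycle had 40 of 57 listed genes measured, and 9 of them were below 0 on all arrays and 2 above, beside 14.1% and 14.2% of all genes, with a median of -0.05. At an unadjusted p under 0.05, 7 were lower and 2 higher, beside 7.56% and 8.06%, and 0 passed the adjusted threshold. Rb1, the retinoblastoma protein that holds E2F factors back, had -0.91 and -1.08 in UCP air and -0.71 and -1.01 in particle-free air (mean -0.93 ± 0.16, SD, n = 4; limma adjusted p = 0.122). Its relative Rbl1 averaged -0.81 ± 0.40, Skp1, of the ligase that Cks1b assists, -0.70 ± 0.43 and Fbxo5, an inhibitor of the anaphase-promoting complex, -0.80 ± 0.37 (SD, n = 4 each). Btg1, which restrains proliferation, lay at 0.81 ± 0.14 (SD, n = 4). Rbl2, another relative, lay on the other side of 0 from Rb1 and Rbl1, at 0.26 ± 0.22 (SD, n = 4). A link between these regulators and the replication genes was not tested.

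**Figure D5:**
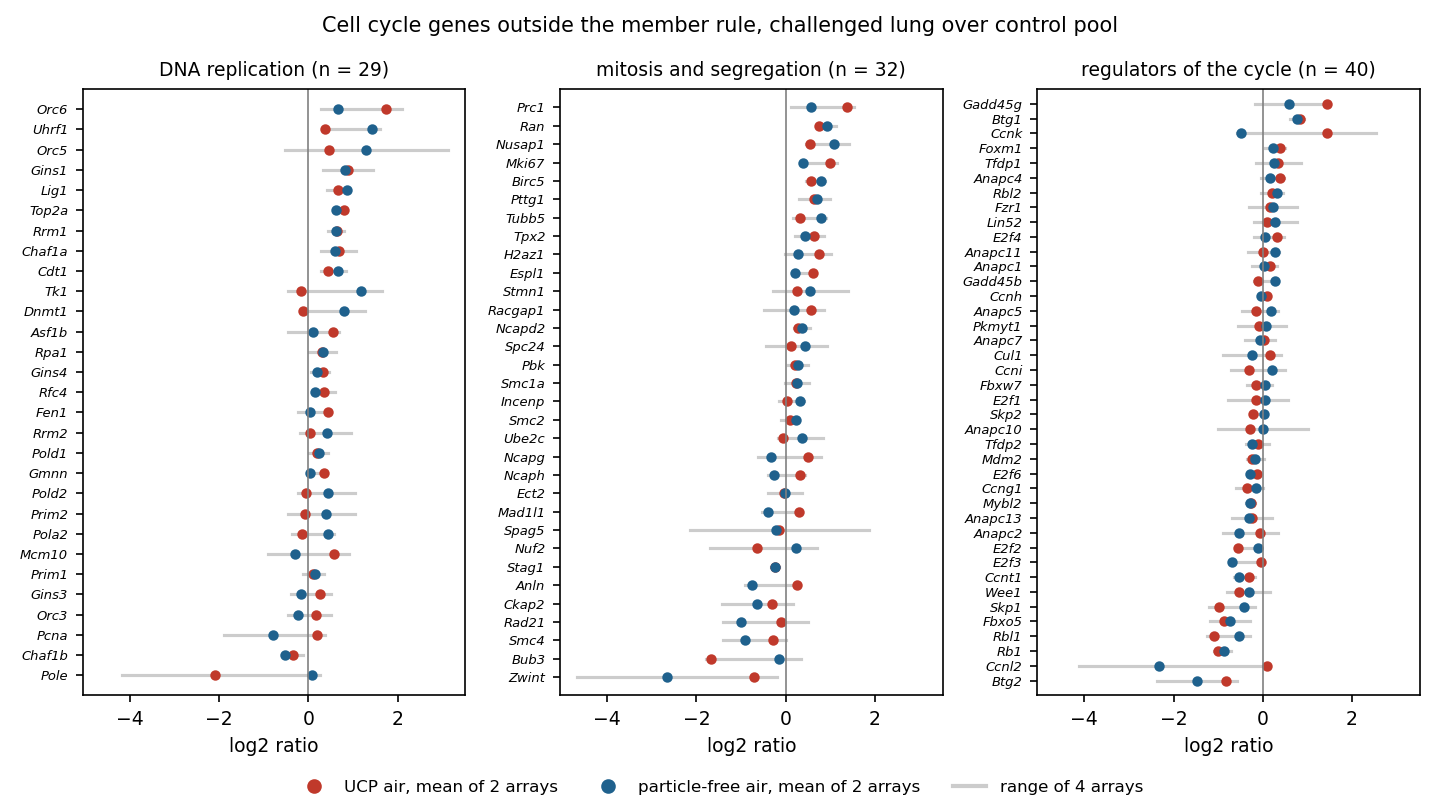
Log2 ratio of challenged lung over control pool (horizontal axis) for measured genes of DNA replication (29), mitosis and segregation (32) and regulators of the cycle (40). Red points are means of 2 UCP air arrays, blue points means of 2 particle-free air arrays, and grey lines span the 4 arrays. Most replication genes lie above 0, and Rb1 lies below 0 on every array.

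Transcripts that mark other cell types and tissues gave the following values. In the averaged effect, Chil3 of the macrophage list rose by 5.58 ± 0.24 on the log2 scale (SD, n = 4; limma adjusted p = 0.00598). Gpd1 and Car3 of the fat list averaged -2.48 ± 0.91 and -2.03 ± 0.49, and Nppa of the heart muscle list -2.85 ± 3.43 (SD, n = 4 each; limma adjusted p = 0.0491, 0.04998 and 0.0491). Nppa had means of -5.81 in UCP air and 0.11 in particle-free air. In the other marker lists 0 genes passed in the averaged effect. Macrophage genes (6 of 10 measured) had a median averaged log2 ratio of 1.82, with 4 positive on average and 2 negative (Lyz2 at -0.34 and Marco at -0.36). Both measured genes of B and plasma cells were positive on all arrays (Pou2af1 at 1.31 and Xbp1 at 0.81). Of the genes of neutrophils and their precursors, 6 of 7 were positive on average, beside 48.3% of all genes. Thymus genes (7 of 14 measured) were all negative on average, with a median of -1.28 in UCP air and -0.28 in particle-free air. Fat genes (5 of 6) had medians of -2.05 in UCP air and -1.24 in particle-free air, and the 3 measured red cell genes, all negative on average, a median of -0.57 over both airs. Heart muscle genes (5 of 6) had medians of -2.76 in UCP air and -0.01 in particle-free air, and liver genes (6 of 6) had medians of 0.53 in UCP air and 3.14 in particle-free air. The medians of ciliated cell and epithelium genes lay near 0, at -0.05 and 0.06. Averages of the ciliated genes ran from -0.63 for Tubb4b, which was below 0 on all arrays, to 0.065. The part of these transcripts in the ratios of the division genes was not tested.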

How the data were processed

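The deposited values are log2 ratios per probe and array of challenged lung over control pool. Per the labels' protocols, 20 µg of total RNA from individual organs was labelled indirectly with Cy3 or Cy5 and hybridised beside a pool from 6 control animals; for the scanner and the normalization, the methods are not given in the sources used. Scale and relative direction were read from the values: extreme ratios reach a ceiling near log2 of 100000, at 17.16 and 16.56 on the Cy5 arrays and -16.33 and -16.05 on the Cy3 arrays of UCP and particle-free air, which puts all arrays in 1 direction. The overall sign is likely only. Brightness was not used, so no dim probes were filtered; precision is limited by how few arrays there are.

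Of 20205 probes, 13852 had 1 gene symbol in the platform annotation, 0 had several and 6353 none. The 12532 named probes with a value on all arrays were averaged into 9153 genes; the 92 members rest on 125 probes, 27 members have several, and these differ by more than 1 in 3 (Ccnb2, Kif20a and Cenpx). limma 3.58.1 (R 4.3.3; lmFit and eBayes, two-sided) had 1 coefficient per air on 4 arrays. Ratios were tested against 0 for each air and their average, and between airs, with Benjamini-Hochberg adjustment over all genes at 0.05. Each pool is 1 control sample, so the spread of controls is left out. The fit was tested on simulated data.

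Any member could be named. Those given by array followed a rule: up to 15 per direction with the smallest p in the averaged effect, up to 5 per direction between airs, every inhibitor and the markers; of each list of other genes the 5 with the smallest p. Other members, Rbl2 and the named marker genes of other cell types were chosen after their values were seen. Members, roles and lists were chosen with earlier results of these data known. Promoter windows, from RefSeq (GRCm38.p6), were found for 80 members and not for 12. The alternatives were probe averaging, array centring and scaling, missing values, a dye block, averaging the arrays of an air, a narrower reading of the naming rule, and leaving out each array.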

Additional observations from a re-analysis of the deposited data

Results flagged for a closer look

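For 7 of the 92 members both UCP air arrays lay on one side of 0 and both particle-free air arrays on the other, beside 4.34% of all genes positive in UCP air and negative in particle-free air and 3.37% the other way round. Positive in UCP air were Plk4 (UCP minus particle-free air 1.588), Kif20a (1.442), Cenpw (0.738), Kif2c (0.6965) and Cdc5l (0.667), and negative in UCP air were Kif22 (-0.584) and Cdc16 (-0.5435). All 7 had a limma adjusted p of 0.979 for the difference, so none passed that test. Several are averages of probes that differ. Neither Kif22 probe kept to 1 side of 0 on the UCP air arrays (0.06 and -0.57, -0.07 and 0.05). For Cdc16, 1 probe stayed between -0.207 and 0.002 on all arrays. For Kif2c, 1 probe was at 0.16 on particle-free air array 2. The size of the Kif20a difference rests largely on 1 probe at -4.20 on particle-free air array 1.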

How the results depend on the processing

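No member reached an adjusted p under 0.05 in any comparison under any alternative run. The count of members at least 1.5-fold higher on every array was 2; it was 5 without UCP air array 1, and 2 to 5 over the fits that leave out an array (1 to 1 lower). The members' median log2 ratio of 0.0185 ranged from -0.04088 to 0.1276 when an array was left out, and the division members' median of 0.07356 from 0.02969 to 0.2255, both highest without particle-free air array 2. Of 40 members given by rule, 34 kept their sign under all 11 alternatives. The other 6 changed sign when an array was left out, ranging from -0.1708 to 1.648 for Ccnb2, -0.2717 to 0.3967 for Plk4, -0.0145 to 0.4475 for Kif20b, -0.08563 to 0.09162 for Kif2c, -1.028 to 0.1715 for Plk2 and -0.1105 to 0.0925 for Cenpw; Cenpw was also 0.01075 with centred and 0.03386 with scaled arrays. The cause was not tested. Counts of members with an array left out are given without the share of all genes in the same setting. They show how far the counts depend on single arrays and nothing particular to the members. The replicate number is the dye orientation, and deviations of same-numbered arrays correlated at r = 0.055 over 9153 genes. With it as a block, 0 members passed and 12 members in place of 14 lay higher at an unadjusted p under 0.05. With 2 arrays per air and 1 control pool, differences of the size seen in most members are not resolved.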

Other observations

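Across the 92 members, pairs of arrays ranked the genes alike only weakly. Spearman's rho was 0.396 between the UCP air arrays and 0.239 between the particle-free air arrays, and 0.236 to 0.344 between arrays of different airs, beside 0.158 to 0.325 over 9153 genes for all pairs. Genes within an array share its dye orientation and its control pool and are not independent, so these are descriptions.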
